A study of Drosophila melanogaster with 87 samples.

Results

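The small heat shock proteins of Drosophila melanogaster were followed through 87 RNA libraries, as the read counts of 10 genes that encode a protein of the alpha-crystallin family: Hsp23, Hsp26, Hsp27, Hsp67Ba, Hsp67Bc, l(2)efl, CG4461, CG7409, CG13133 and CG14207. They were taken by name, not by their values, from a table of 17562 genes, and all 10 passed the filter on low counts in each of 33 comparisons. Hsp22, a further member of the family, was left out because its exons lie within those of another gene, CG4456, and the table lists it at 0 in every library.

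Small heat shock proteins bind partly unfolded proteins without using ATP and keep them soluble until the Hsp70 machinery, with its Hsp40 partners, refolds them. In flies, heat turns on several of their genes through the heat shock factor Hsf, which binds heat shock elements near the gene start, while other members are expressed without stress in a tissue-specific way. The study asked how N6-methyladenosine (m6A), an RNA mark placed by the methyltransferase Mettl3 and read in the nucleus by Ythdc1, bears on the heat stress response of the brain.

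All flies were males that carried DaGal4, a driver active in all tissues, with 1 RNAi line each against mCherry (the control), Mettl3 or Ythdc. The labels put collection at 1–2 days after eclosion, while the methods put flies for heat shock at 6 days, so the age at treatment is uncertain. Heat shock (HS) lasted 30 min at 38.5 °C, and recovery was 6 h or 24 h at 25 °C. Brains of the Mettl3 experiment gave 6 libraries per genotype (control, Mettl3 RNAi) without heat (basal) and directly after HS, 2 control and 3 Mettl3 RNAi libraries at 6 h, and 3 of each at 24 h. Brains of a separate Ythdc1 experiment gave 3 control and 3 Ythdc RNAi libraries in each of basal and HS. Pools of 200 heads of control and Mettl3 RNAi flies, basal and HS, gave an m6A immunoprecipitation (m6A-IP) and an input library each, with 3 pools per group for the NEB antibody and 2 for the SYS antibody. In these bulk samples, fewer cells of a type and less RNA per cell cannot be told apart, and knockdown was in the whole animal, so an effect on brains could arise in other tissues.

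Gene totals were 19356200 to 65901600 reads in brains, 12164700 to 17710200 in head inputs, 12035600 to 19583600 in SYS IPs and 1318960 to 10525700 in NEB IPs. None of 114 pairs of libraries within a group held identical counts, and all differed by more than sampling noise (chi-square per degree of freedom of 3.12 or more). As a check of the labels, Mettl3 mRNA was lower in Mettl3 RNAi brains by a log2 fold change of -1.71 in basal and -3.01 in HS, and Ythdc1 mRNA was lower in Ythdc RNAi brains by -2.21 and -3.23. Ythdc1 was also lower in Mettl3 RNAi brains, by -0.68 and -0.84. No marker of the 6 cell type lists (neurons, glia, retina, muscle, fat body and hemocytes) was at 0. In the basal control brains of the Mettl3 experiment the summed muscle markers ranged from 58.5 to 394 counts-per-million (CPM, scaled by library total and normalization factor), and in HS control brains from 183 to 840. From basal to HS, the median sums of these control brains also rose for neurons (7622 to 10085 CPM), glia (3331 to 4307) and retina (30768 to 41898). They stood at 2707 and 2840 for fat body and at 124 and 117 for hemocytes. Fat body markers summed to 1017 to 5817 CPM over all brain groups and 2258 to 9356 in head inputs. Retina markers summed to 15744 to 65868 CPM over all brain groups and 17047 to 25404 in head inputs. The part of RNA from such tissue in the results below was not tested.

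Of the 10 genes, 6 lie close together on chromosome arm 3L of the dm6 build. In order they are Hsp67Bc (3L, 9371511 to 9372497, minus strand), CG4461 (9375430 to 9376293, plus), Hsp26 (9376418 to 9377427, minus), Hsp67Ba (9377802 to 9379534, minus), Hsp23 (9381882 to 9382765, plus) and Hsp27 (9384063 to 9385694, plus). CG7409 lies elsewhere on 3L (7754409 to 7755168, plus), CG13133 on 2L (10091208 to 10092389, minus), l(2)efl on 2R (23684651 to 23685543, minus) and CG14207 on X (19605199 to 19611413, plus). The genes have 1 exon block each except l(2)efl with 3 and CG14207 with 6, which also has 4 annotated transcripts.

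The counts of 1 member have a limit of their own. Of the 1733 exon bases of Hsp67Ba, 1316 are overlapped by the antisense RNA CR43481 on the opposite strand. Whether the counting used strand is not stated in the sources used here, and the counts listed for CR43481 rose in control brains from 7–16 to 121–171 with HS (log2 fold change 4.18 ± 0.31 SE, edgeR adjusted p = 4.4e-07), so values of Hsp67Ba are uncertain.

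The 250 bases before the annotated start are shown for the 4 members whose counts changed most with heat, Hsp26, Hsp27, Hsp23 and Hsp67Bc, and for CG14207, whose counts changed least among those called below. The sequences were read from the RefSeq Release 6 genome on the strand of the gene, from 5′ to 3′, and end at the base before the start. Capitals mark pairs of inverted heat shock element units, searched as GAANNTTC and TTCNNGAA on both strands.
Hsp26 (3L:9377428-9377677, minus strand): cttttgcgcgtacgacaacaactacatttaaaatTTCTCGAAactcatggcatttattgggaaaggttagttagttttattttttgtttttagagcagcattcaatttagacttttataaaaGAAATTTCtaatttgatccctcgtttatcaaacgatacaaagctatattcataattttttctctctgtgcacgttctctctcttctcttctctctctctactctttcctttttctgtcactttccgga
Hsp27 (3L:9383813-9384062, plus strand): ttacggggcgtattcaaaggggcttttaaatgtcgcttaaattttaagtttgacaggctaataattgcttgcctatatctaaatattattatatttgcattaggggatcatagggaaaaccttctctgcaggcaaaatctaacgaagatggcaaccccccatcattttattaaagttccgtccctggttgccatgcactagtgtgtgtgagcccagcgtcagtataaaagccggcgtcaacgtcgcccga
Hsp23 (3L:9381632-9381881, plus strand): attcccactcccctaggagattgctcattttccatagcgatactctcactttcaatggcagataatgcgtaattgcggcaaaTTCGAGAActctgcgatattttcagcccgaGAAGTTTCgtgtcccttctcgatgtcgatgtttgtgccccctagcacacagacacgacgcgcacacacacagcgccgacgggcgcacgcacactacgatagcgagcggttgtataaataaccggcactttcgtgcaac
Hsp67Bc (3L:9372498-9372747, minus strand): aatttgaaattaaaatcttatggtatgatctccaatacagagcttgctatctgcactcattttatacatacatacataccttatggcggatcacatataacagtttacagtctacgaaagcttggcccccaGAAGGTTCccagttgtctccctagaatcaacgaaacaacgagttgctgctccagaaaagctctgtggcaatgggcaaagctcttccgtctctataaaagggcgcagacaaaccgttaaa
CG14207 (X:19604949-19605198, plus strand): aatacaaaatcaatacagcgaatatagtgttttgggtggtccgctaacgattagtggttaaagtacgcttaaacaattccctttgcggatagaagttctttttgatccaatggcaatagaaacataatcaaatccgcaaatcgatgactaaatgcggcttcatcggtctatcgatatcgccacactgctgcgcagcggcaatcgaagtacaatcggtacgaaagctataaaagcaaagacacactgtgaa

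Hsp26 had elements at -216 and -128 from its annotated start and another at 3, just past it. Its nearest match to the TATA box letters TATAAA, searched on both strands, also lay past that start, at 24. In the other promoters shown the nearest match was before the start, at -27 (Hsp23), -28 (Hsp27 and Hsp67Bc) and -25 (CG14207). Whether Hsp26 transcripts begin at the annotated start was not tested, so its positions hold for the annotation only. Hsp23 had elements at -168 and -138, and Hsp67Bc had 1 at -119. Hsp27, CG14207 and CG4461 had none in these letters within the window, which draws nothing about farther sites or other spacings. From 250 bases before to 50 after the start, 15.7% of 18164 annotated promoters held at least 1 such element and 0.231% held 3 or more, as Hsp26 did. The 3-unit form was present in 0.424% of promoters, and in none of the 10 genes. l(2)efl also had 1 element, at -124.

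Control brains from here on are those of the Mettl3 experiment unless the Ythdc1 experiment is named. In the basal ones the most abundant member per length was CG14207, at 51.0 ± 2.9 CPM per kb of exon (SD, n = 6). It was followed by Hsp23 at 32.8 ± 4.8, Hsp67Ba at 22.9 ± 4.9 and Hsp67Bc at 15.99 ± 2.8. Lower down were CG7409 at 8.23 ± 1.9, Hsp26 at 5.18 ± 0.89, l(2)efl at 3.96 ± 1.6 and Hsp27 at 3.27 ± 0.36. The last places were held by CG4461 at 1.61 ± 1.6 and CG13133 at 0.363 ± 0.22 CPM per kb. Neighbours in this order had overlapping libraries, except CG14207 against Hsp23 and Hsp67Bc against CG7409, and CG13133 rested on only 7 to 20 reads per library. Together the 10 genes took 0.0175% to 0.0242% of the counts of each basal control brain of the Mettl3 experiment. In basal controls of the Ythdc1 experiment they took 0.0299% to 0.036%. Hsp26 and Hsp27 stood higher in those controls, at 20.4 to 30.5 and 13.1 to 18.1 CPM, so the order above is that of the Mettl3 experiment.

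Whole heads had another order. In basal control inputs of the NEB experiment, CG7409 led at 153 ± 11 CPM per kb (n = 3), beside CG14207 at 151 ± 1.7, and CG4461 stood at 127 ± 6. CG7409 and CG14207 were within their spread, and with the longest CG14207 transcript as the length its level was 167 CPM per kb, above CG7409. l(2)efl, an essential gene named for its lethal mutants, stood at 70.2 ± 4.8 CPM per kb in these heads. Muscle markers summed to 2653 to 3947 CPM in NEB inputs and 5293 to 10031 in SYS inputs, above every control brain. CG4461, CG7409, l(2)efl, CG14207, Hsp26 and Hsp27 had higher levels in heads than in basal control brains of the Mettl3 experiment. Hsp23 (29.9 CPM per kb) and Hsp67Ba (25.9) had similar levels in both. Basal control brains of the Ythdc1 experiment, however, held 20.4 to 30.5 CPM of Hsp26, above the 13.8 to 14.8 CPM of the NEB inputs. CG13133, whose head values depend on the pool, is left aside here. Brain and head libraries came from different kits and experiments and were scaled apart, so tissue and library preparation cannot be told apart.

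**Figure D1:**
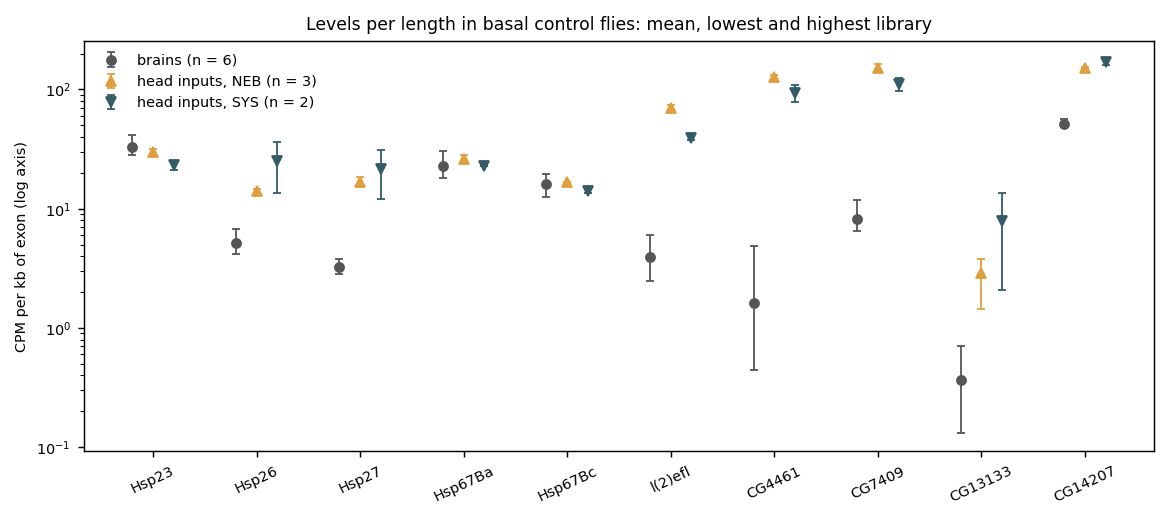
Levels per length of the 10 genes in basal control flies, as CPM per kb of exon on a log axis. Points are means of 6 brain libraries of the Mettl3 experiment, 3 NEB head inputs and 2 SYS head inputs, and bars run from the lowest to the highest library. CG4461 is at 1.61 in brains and 127 in NEB heads, while Hsp23 is at 32.8 and 29.9.

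Heat raised 3 members of the 3L cluster by orders of magnitude. Hsp26 mRNA in control brains ranged from 4.20 to 6.87 CPM in basal (median 5.10) and from 3412 to 4377 CPM after HS (median 3896). Hsp27, a member found in the nucleus in fly cells, ranged from 4.65 to 6.13 CPM (median 5.17) and from 1793 to 2318 CPM (median 2047). Hsp23 ranged from 25.0 to 36.7 CPM (median 28.6) and from 1517 to 2310 CPM (median 1799). In all 3 genes every HS brain was far above every basal brain. Differences are given as log2 fold changes ± SE from edgeR's quasi-likelihood test, and a gene was called where its p, adjusted over all genes tested, was under 0.05. The log2 fold changes were 9.53 ± 0.15 for Hsp26 (741-fold, edgeR adjusted p = 6.2e-14), 8.57 ± 0.11 for Hsp27 (380-fold, adjusted p = 1.4e-14) and 5.99 ± 0.15 for Hsp23 (63.4-fold, adjusted p = 9.4e-12). The basal order of Hsp23 above Hsp26 and Hsp27 per length turned into Hsp26 first after HS, at 3891 CPM per kb against 2115 for Hsp23 and 1262 for Hsp27.

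Hsp67Bc, which works with the BAG-family co-chaperone stv in the clearance of misfolded proteins, and Hsp67Ba changed much less. Hsp67Bc ranged from 12.3 to 19.2 CPM in basal (median 15.8) and from 44.1 to 65.1 CPM after HS (median 56.6), a log2 fold change of 1.81 ± 0.13 (adjusted p = 4.2e-07). Hsp67Ba ranged from 31.5 to 52.4 CPM (median 36.4) and from 69.4 to 97.6 CPM (median 77.7), a log2 fold change of 1.00 ± 0.14 (adjusted p = 6.6e-05). Both genes were higher in 6 of 6 HS brains than in any basal brain. CG7409 overlapped between groups, at 4.93 to 8.94 CPM in basal and 6.07 to 10.9 after HS (0.53 ± 0.17, adjusted p = 0.018), and 5 of 15 alternatives ended the call, among them replicates 1–3 alone (adjusted p = 0.276) and the sets without replicate 2, 5 or 6 (0.0532 to 0.0589).

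CG14207 was called higher with HS in control brains at 0.15 ± 0.04 (adjusted p = 0.0083), and with library totals as the only scaling it was called lower, at -0.25 (adjusted p = 0.000297). That scaling moved the median of all genes by -0.40, and relative to the median CG14207 was at 0.17 with the main scaling and 0.16 with totals. Its libraries ranged from 73.5 to 86.0 CPM in basal and 85.4 to 91.3 after HS, with an overlap, and the call was also lost without the count filter (adjusted p = 0.0836) and in replicates 1–3 (0.205). l(2)efl (-0.24 ± 0.28), CG4461 (0.02 ± 0.66) and CG13133 (1.02 ± 0.41, adjusted p = 0.055) were not called. CG4461 ranged from 0.386 to 4.20 CPM over the 6 basal control brains alone.

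In all, 7 of the 10 members were called higher in control brains with HS, where 19.7% of 10049 genes were. The members' median log2 fold change was 1.01, beside -0.02 for all genes. Of the 14 other chaperone and heat shock genes of a list made for comparison, which holds Hsp70 and Hsp90 genes, Hsp40 partners and Hsf, 14 were called higher, with a median of 6.18 and a range from 0.23 (Hsf) to 11.78 (Hsp70Bbb, whose reads cannot be split with certainty from near-identical copies). stv rose by 3.85 ± 0.11 and DnaJ-1, an Hsp40 gene, by 4.98 ± 0.10. The 10 members together rose to 0.567% to 0.740% of the counts of each HS control brain of the Mettl3 experiment. HS controls of the Ythdc1 experiment held 0.810% to 0.967%.

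**Figure D2:**
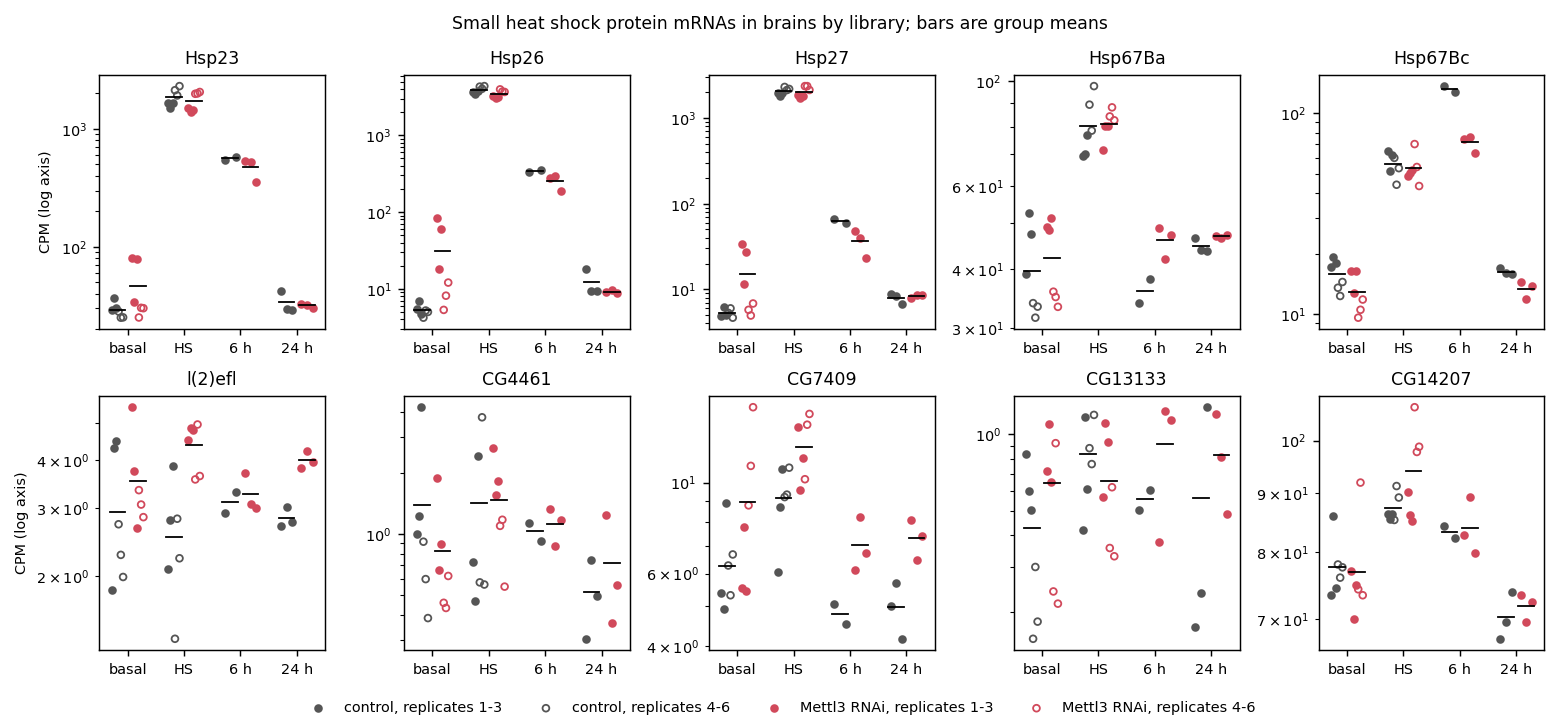
CPM on a log axis of each gene in brains of the Mettl3 experiment at basal, directly after HS, and 6 h and 24 h into recovery. Each point is a library, grey for control and red for Mettl3 RNAi, filled for replicates 1–3 and open for replicates 4–6, and bars are group means. Hsp26 in control brains goes from a median of 5.10 to 3896 with HS, and Hsp67Bc in control brains stands higher at 6 h (137 and 127) than at HS (44.1 to 65.1).

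The other brain groups had the same 5 of the 6 cluster genes called, with CG4461 as the exception. In Mettl3 RNAi brains the log2 fold changes with HS were 6.76 ± 0.75 for Hsp26, 7.04 ± 0.59 for Hsp27, 5.18 ± 0.37 for Hsp23, 2.01 ± 0.17 for Hsp67Bc and 0.91 ± 0.12 for Hsp67Ba, with adjusted p from 7.9e-07 to 7.2e-05. With CG14207 at 0.26 ± 0.08 (adjusted p = 0.016; with library totals -0.09 and not called) this made 6 of 10 members called higher, where 18.3% of all genes were. Controls of the Ythdc1 experiment had 5 of 10 called higher, beside 5.22% of all genes, with Hsp26 at 7.52 ± 0.21, Hsp27 at 7.46 ± 0.19, Hsp23 at 5.14 ± 0.19, Hsp67Bc at 2.42 ± 0.19 and Hsp67Ba at 0.97 ± 0.11. Without basal replicate 8 of these controls the count was 8, with l(2)efl, CG13133 and CG14207 added, in a fit that called 1884 of 10644 genes higher. In Ythdc RNAi brains 7 of 10 were called higher, beside 25.8% of all genes, and Hsp26 was at 6.55 ± 0.28 and Hsp27 at 6.20 ± 0.32. There CG7409 was also called at 1.23 ± 0.24 (adjusted p = 0.0047) and CG14207 at 0.29 ± 0.07 (adjusted p = 0.0099), the latter at -0.12 with library totals. For Hsp26 the HS levels were near each other between experiments (3412 to 4377 CPM in controls of the Mettl3 experiment and 4210 to 4926 in those of the Ythdc1 experiment) while the basal levels differed, since the basal controls of the Ythdc1 experiment held 20.4, 25.0 and 30.5 CPM of Hsp26, above each of the 6 basal controls of the Mettl3 experiment.

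**Figure D3:**
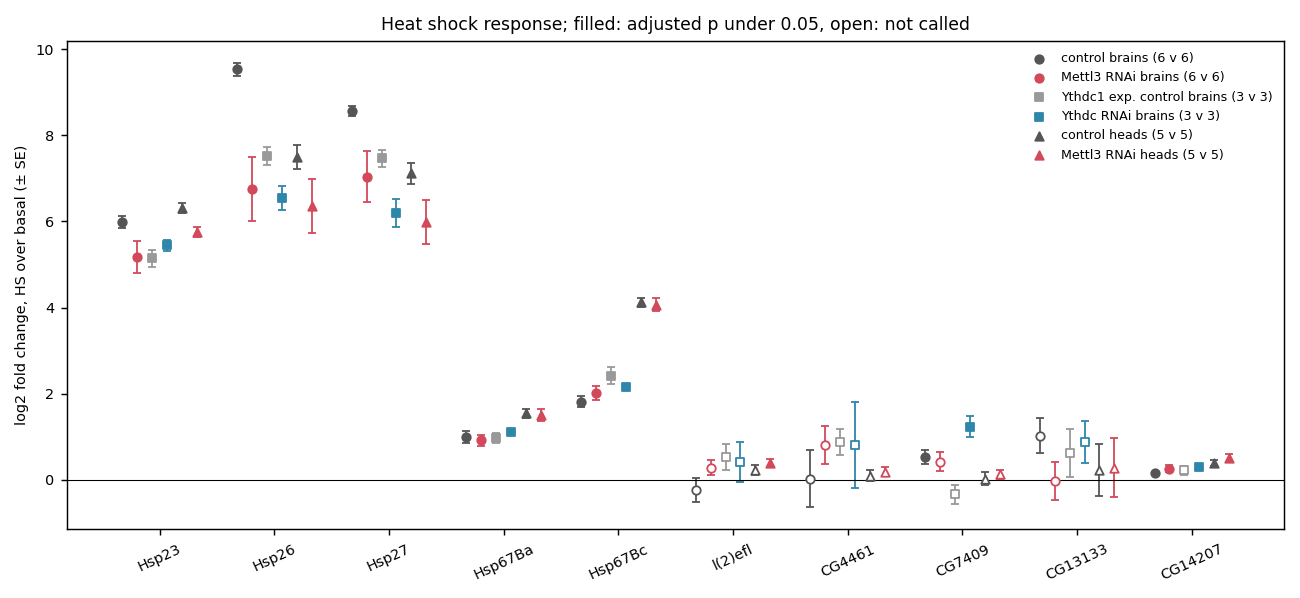
Log2 fold change from basal to HS of each gene, with its SE, in 4 groups of brains (circles and squares) and 2 of head inputs (triangles). Filled symbols have an edgeR adjusted p under 0.05, and Hsp67Bc stands at 1.81 in control brains and 4.12 in control heads.

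Control heads (NEB and SYS inputs, 5 pools per condition) had 6 of 10 members called higher with HS, where 15.7% of all genes were. The NEB inputs held 14.8, 14.4 and 13.8 CPM of Hsp26 in basal and 3141, 3051 and 2992 CPM after HS. Hsp67Bc, which was modest in brains, went from 16.4, 16.6 and 16.5 CPM to 246, 250 and 238 CPM in NEB inputs and from 13.5 and 14.6 to 340 and 280 CPM in SYS inputs. The groups did not overlap in either gene. The log2 fold changes were 7.49 ± 0.28 for Hsp26, 7.12 ± 0.24 for Hsp27, 6.32 ± 0.12 for Hsp23, 4.12 ± 0.11 for Hsp67Bc (adjusted p = 1.5e-09) and 1.54 ± 0.10 for Hsp67Ba. CG14207 was at 0.39 ± 0.07 (adjusted p = 0.0018), which was not called with library totals (0.14, adjusted p = 0.132) or in the SYS inputs alone (0.53, adjusted p = 0.274). Mettl3 RNAi heads had 7 of 10 called higher, beside 18.6% of all genes, with Hsp26 at 6.36 ± 0.63, Hsp27 at 5.99 ± 0.51, Hsp67Bc at 4.06 ± 0.15 and l(2)efl at 0.39 ± 0.09 (adjusted p = 0.0065; 0.139 with library totals).

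The difference between the head and brain responses of control flies was tested as an interaction, with brains of the Mettl3 experiment only. Hsp67Bc responded more in heads, by 2.31 ± 0.17 on the log2 scale (adjusted p = 2.8e-07), 1 member of 10 where 2.97% of 11090 genes were called. Hsp26 (-2.05 ± 0.26, adjusted p = 0.00011) and Hsp27 (-1.46 ± 0.22, adjusted p = 0.00068) responded less in heads, beside 1.21% of all genes. These 3 calls held under DESeq2, RLE size factors, library totals, no count filter and scaling without heat shock protein genes. Control brains of the Ythdc1 experiment, not part of this test, responded by 7.52 for Hsp26, 7.46 for Hsp27 and 2.42 for Hsp67Bc. Control heads responded by 7.49, 7.12 and 4.12. The lower responses of Hsp26 and Hsp27 in heads thus rest on which brain experiment is taken. Against control brains of the Mettl3 experiment, the basal level of Hsp26 was higher in heads (13.6 to 36.7 CPM over the 5 control pools). The HS level was 2992 to 3648 CPM in heads, with the 3 NEB pools below every such brain. Brains and head inputs were scaled apart, so a small gap between their CPM cannot be read as a difference in level. For Hsp27 both the basal level (19.7 to 51.2 CPM) and the HS level (3742 to 5039 CPM) were higher in heads than in brains of the Mettl3 experiment. For Hsp67Bc the basal levels were alike and the HS level differed. Tissue cannot be told apart from kit and experiment here.

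Recovery separated the members by how long their mRNA stayed high. The 2 control brains at 6 h held 550 and 578 CPM of Hsp23, 334 and 353 of Hsp26 and 66.7 and 59.9 of Hsp27, each between the basal and HS libraries. Taken as a percent of the mean of HS replicates 1–3, this left 34.9% for Hsp23, 9.49% for Hsp26 and 3.33% for Hsp27. The fall from HS to 6 h was -1.43 ± 0.08 for Hsp23, -3.31 ± 0.09 for Hsp26 and -4.82 ± 0.09 for Hsp27 (adjusted p from 6.7e-08 to 4.9e-05). Per length, Hsp23 at 638 CPM per kb was then the leading member, with Hsp26 at 340 and Hsp27 at 38.8.

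Hsp67Bc went the other way and was highest at 6 h. Its control libraries held 65.1, 51.8 and 62.3 CPM in HS replicates 1–3 and 137 and 127 CPM at 6 h, or 221% of the HS mean, without overlap. The rise from HS to 6 h was 1.23 ± 0.09 (adjusted p = 0.00013), 1 member called higher where 32.2% of 10137 genes were. Lower from HS to 6 h were 5 of 10, beside 26.5% of all genes, namely Hsp23, Hsp26, Hsp27, Hsp67Ba (-0.92 ± 0.08, adjusted p = 0.00019) and CG7409 (-0.74 ± 0.23, adjusted p = 0.025, a call that 5 of 10 alternatives ended). Library totals moved the median of all genes by 0.51 in this comparison, so shares in each direction depend on the scaling.

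Against basal, 4 members were still higher at 6 h in control brains (Hsp26 6.00 ± 0.15, Hsp23 4.23 ± 0.13, Hsp27 3.64 ± 0.11 and Hsp67Bc 2.95 ± 0.09, adjusted p from 1.3e-06 to 2.9e-06), where 3.86% of all genes were. Hsp67Ba, at 33.8 and 38.0 CPM, was back among its basal libraries. Of the 14 comparison chaperones, 9 were still higher at 6 h, stv by 0.55 ± 0.10. At 24 h edgeR called 0 of 10 members against basal, beside 0.235% of all genes called in either direction. An unadjusted p under 0.05 was reached by 3 members, beside 1512 of 9778 genes, and DESeq2 called 1 higher and 1 lower. Hsp26 held 18.0, 9.29 and 9.31 CPM at 24 h (1.11 ± 0.28, adjusted p = 0.15), each above its 6 basal libraries, and Hsp27 held 8.81, 8.23 and 6.76 (0.57 ± 0.13, adjusted p = 0.15).

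Mettl3 RNAi brains recovered in a like order. At 6 h they held 32.6% of the HS mean for Hsp23, 8.11% for Hsp26, 2.06% for Hsp27 and 142% for Hsp67Bc. From HS to 6 h, 7 members were called lower, beside 27.6% of all genes, among them Hsp27 (-5.53 ± 0.24), Hsp26 (-3.55 ± 0.16) and Hsp23 (-1.55 ± 0.14), and Hsp67Bc alone was called higher (0.58 ± 0.07, adjusted p = 0.00032), beside 34.9%. Of these calls, CG4461 (-0.76 ± 0.25, adjusted p = 0.03) was lost in 6 of 11 alternatives.

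Against basal, 2 members were called higher at 6 h in Mettl3 RNAi brains, beside 0.892% of all genes: Hsp67Bc (2.22 ± 0.14, adjusted p = 0.0077) and Hsp23 (2.84 ± 0.38, adjusted p = 0.045). With the replicate number as a block neither was called (adjusted p = 0.116 and 0.159), nor was any other gene. Without basal replicate 2 Hsp26 was called as well (1.80, adjusted p = 0.0059), in a fit that called 1018 of 10334 genes higher. Without basal replicate 1 or 3, or any 1 of the 3 recovery libraries, Hsp23 was not called (0.112 to 0.202), and Hsp67Bc was lost without basal replicate 3 or recovery replicate 1 or 2 (0.0510 to 0.107). At 24 h edgeR called 0 of 10 and 0 of all genes (0%). There 3 members, beside 2047 of 9870 genes, had an unadjusted p under 0.05, and DESeq2 called 3 lower. Without basal replicate 2, whose basal Hsp26 was the lowest of the 3 (18.0 CPM against 83.5 and 59.4), 6 members were called lower at 24 h, Hsp26 by -3.03 (adjusted p = 8e-05). That fit called 1796 of 10142 genes lower and 1304 higher.

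Genotype was then compared within each condition. In basal brains Hsp26 held 5.39, 6.87, 4.74, 4.20, 5.21 and 4.997 CPM in the control replicates 1 to 6 and 83.5, 18.0, 59.4, 5.31, 8.13 and 12.1 CPM in the Mettl3 RNAi replicates. Hsp27 held 4.65 to 6.13 CPM in controls and 34.2, 11.6, 27.5, 5.75, 4.93 and 6.81 CPM in Mettl3 RNAi. The Mettl3 RNAi replicates 1 to 3 were above every control in both genes, and replicates 4 to 6 were near them or overlapped. The log2 differences of 2.62 ± 0.64 for Hsp26 (adjusted p = 0.059), 1.55 ± 0.47 for Hsp27 (0.13) and 0.72 ± 0.31 for Hsp23 (0.28) did not pass, and edgeR called 0 of 10, beside 2.19% of all genes in either direction. An unadjusted p under 0.05 was reached by 4 members, beside 1613 of 10042 genes, and DESeq2 called 2 higher, Hsp26 and Hsp27. Within replicates 1–3 Hsp26 differed by 3.31 (adjusted p = 0.0719) and within replicates 4–6 by 0.84 (0.199).

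The libraries with high Hsp26 and Hsp27 also had high Hsp68, an Hsp70-family gene. Mettl3 RNAi basal brains held 93.6, 17.6, 71.5, 9.37, 14.9 and 16.8 CPM of Hsp68 (by library total), against 6.73 to 10.2 in controls. Muscle markers in these 6 brains summed to 38.1 to 1181 CPM, with the highest sum in replicate 1, which was also the highest in Hsp26. Replicate 3, the next highest in Hsp26, had a muscle sum of 249 CPM, within the control range of 58.5 to 394. Replicates 1 and 3 were also the lowest in retina (22970 and 21499 CPM), fat body (1017 and 1377) and hemocyte sums (45.8 and 58.8). They were the highest in glia sums (3526 and 3694 CPM). The part of the replicate range and of tissue makeup in the difference was not tested beyond these values.

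**Figure D4:**
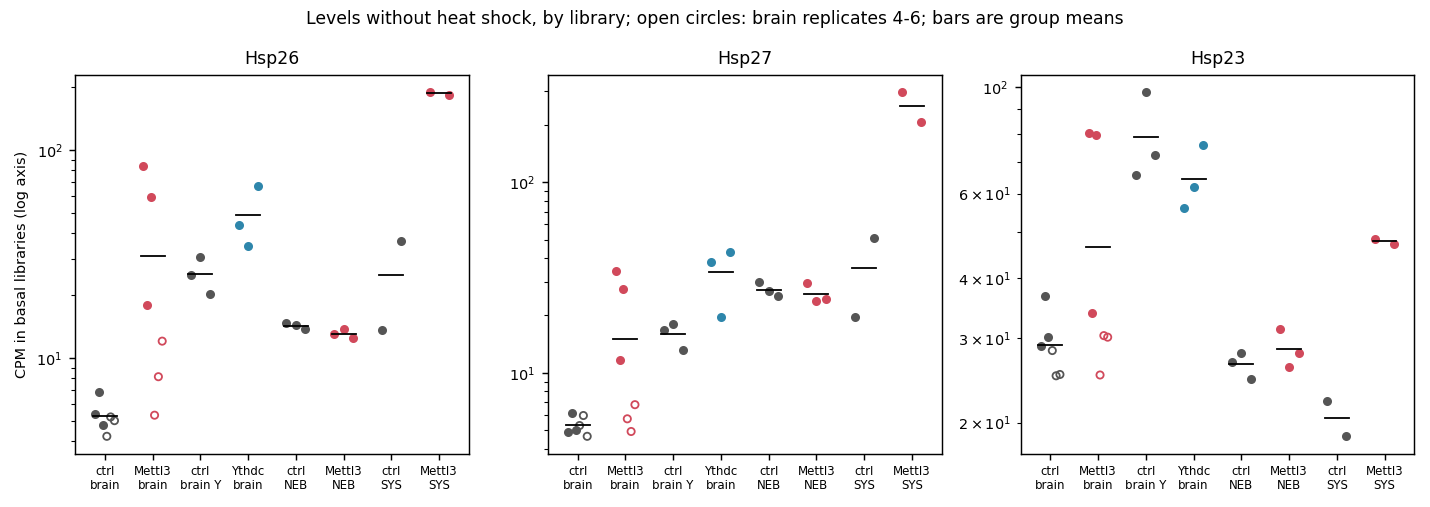
CPM of Hsp26, Hsp27 and Hsp23 in each basal library on a log axis, for brains of the Mettl3 experiment (open circles are replicates 4–6), brains of the Ythdc1 experiment (ctrl brain Y and Ythdc brain) and head inputs of the NEB and SYS experiments. Bars are group means, and Hsp26 runs from 5.31 to 83.5 within the 6 Mettl3 RNAi brains but only from 12.5 to 13.8 in the 3 NEB Mettl3 RNAi inputs.

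After HS, Hsp26 held 3412 to 4377 CPM in control and 3100 to 3968 in Mettl3 RNAi brains (-0.16 ± 0.08, adjusted p = 0.27). With the replicate range as a term, or the replicate number as a block, Hsp26 was called lower at -0.17 (adjusted p = 0.0272 and 0.0282). In the main test l(2)efl alone was called (1 higher of 10, beside 3.6% of all genes), at 2.09, 2.80, 3.87, 1.38, 2.82 and 2.23 CPM in control and 4.52, 4.84, 4.80, 3.56, 4.95 and 3.64 CPM in Mettl3 RNAi brains. The groups overlapped in 1 control library, replicate 3. The log2 difference was 0.82 ± 0.20 (adjusted p = 0.033), from 40 to 160 reads per library, and 6 of 14 alternatives ended the call, namely replicates 1–3 (0.0714) or 4–6 (0.109) alone and the sets without replicate 1, 2, 5 or 6 (0.0752 to 0.106). The difference between the HS responses of the genotypes was called for 0 of 10 members and 0% of all genes. There 3 members, beside 627 of 10503 genes, had an unadjusted p under 0.05, and DESeq2 called 1 lower. Hsp26 was at -2.77 ± 0.64 there (adjusted p = 0.28).

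At 6 h of recovery Hsp67Bc was lower in Mettl3 RNAi brains. The 2 control libraries held 137 and 127 CPM and the 3 Mettl3 RNAi libraries 74.7, 76.5 and 63.4 CPM, without overlap. The difference was -0.92 ± 0.08 (adjusted p = 0.0052), 1 member of 10 called lower where 1.6% of 10281 genes were, and the call held in all 10 alternatives, with adjusted p up to 0.0469. Among these was a block on the replicate number (-0.84, adjusted p = 0.0146), whose pairing is uncertain because the numbers of the control libraries at 6 h differ between the labels and the study's sample list. Directly after HS the same gene held 44.1 to 65.1 CPM in control and 43.4 to 70.3 CPM in Mettl3 RNAi brains over all replicates. In replicates 1–3 alone its mean was 59.7 CPM in control and 50.4 in Mettl3 RNAi brains directly after HS. Its means were 18.1 and 15.1 CPM in basal and 16.2 and 13.3 at 24 h. Of the 14 comparison chaperones, 5 were also called lower in Mettl3 RNAi brains at 6 h.

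At 24 h l(2)efl (2.704, 3.03 and 2.76 CPM in control, 3.81, 4.22 and 3.95 in Mettl3 RNAi) and CG7409 (5.02, 5.71 and 4.16 against 8.11, 6.49 and 7.41) were higher in Mettl3 RNAi brains, 2 of 10 beside 5.33% of all genes. Neither gene overlapped between groups. The differences were 0.50 ± 0.11 (adjusted p = 0.035) and 0.57 ± 0.13 (0.038), and these calls were lost in 9 and 6 of 11 alternatives. Without any 1 library the count of members called was 0 or 1.

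Ythdc RNAi brains were compared with the controls of their own experiment. In basal, Hsp26 held 25.0, 30.5 and 20.4 CPM in control and 43.8, 34.6 and 67.5 CPM in Ythdc RNAi, and Hsp27 held 16.7, 18.1 and 13.1 against 38.0, 19.6 and 43.3 CPM. All Ythdc RNAi libraries were above all controls in both genes. The differences of 0.95 ± 0.27 (adjusted p = 0.11) and 1.08 ± 0.30 (0.1) did not pass, and edgeR called 0 of 10 members, beside 3.89% of all genes in either direction. An unadjusted p under 0.05 was reached by 3 members, beside 2500 of 10341 genes, and DESeq2 called 2 higher and 1 lower. Of the 14 comparison chaperones, 8 were called higher, and Hsp68 held 16.7, 14.2 and 16.1 CPM by library total in control and 73.2, 52.6 and 103 in Ythdc RNAi brains.

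After HS, Hsp67Ba was the 1 member called higher in Ythdc RNAi brains, beside 2.45% of all genes. It held 98.3, 99.7 and 97.5 CPM in control and 119, 114.8 and 121 CPM in Ythdc RNAi, without overlap (0.25 ± 0.04, adjusted p = 0.017), and the call was lost without control replicate 8 or Ythdc replicate 1, 2 or 3 (0.0541 to 0.0690). Hsp26 held 4210 to 4926 CPM in control and 4446 to 4702 in Ythdc RNAi brains. The difference between the HS responses was called for 0 of 10 members by edgeR, beside 0.299% of all genes in either direction. There 3 members, beside 1481 of 10716 genes, had an unadjusted p under 0.05, and DESeq2 called 1 higher and 2 lower. Fat body markers were lower in Ythdc RNAi than in control brains without overlap, at 2087 to 2631 against 2798 to 5164 CPM in basal and 1990 to 2841 against 4502 to 5817 CPM after HS, and their part in these differences was not tested. For the HS responses CG7409 (1.59 ± 0.36, adjusted p = 0.1) and Hsp27 (-1.24 ± 0.33, adjusted p = 0.15) were the nearest to the threshold.

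In head inputs, the comparison of genotypes called 0 of 10 members in basal, beside 4.12% of all genes, and 0 of 10 after HS, beside 2.73%. Without SYS Mettl3 RNAi pool 1 in basal, or SYS control pool 2 after HS, 1 member was called higher. At an unadjusted p under 0.05 edgeR had 5 members in basal, beside 1902 of 10343 genes, and 1 after HS, beside 1593 of 10314. DESeq2 called 0 and 1. With the replicate number as a block within each antibody's experiment, CG4461 (-0.28 ± 0.06, adjusted p = 0.0164) and CG7409 (-0.25 ± 0.06, 0.0222) were lower in Mettl3 RNAi heads in basal. After HS the block gave l(2)efl as higher (0.50 ± 0.09, 0.0074), CG13133 as higher (0.65 ± 0.17, 0.0428) and CG4461 as lower (-0.19 ± 0.05, 0.0339).

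l(2)efl was higher in the NEB pools of Mettl3 RNAi, at 55.2, 48.2 and 52.5 CPM in control and 67.8, 78.2 and 74.6 in Mettl3 RNAi inputs in basal, and 56.2, 64.1 and 52.6 against 82.2, 93.3 and 89.2 after HS. In SYS pools it held 30.6 and 27.7 against 24.7 and 31.9 in basal, and 27.9 and 44.2 against 40.1 and 45.6 after HS. The groups were apart in NEB and overlapped in SYS. Fat body markers were apart in the same NEB inputs, at 5369 to 6219 CPM in control and 6691 to 8768 in Mettl3 RNAi in basal and at 6773 to 7068 against 8252 to 9356 after HS, and their part in the difference was not tested. NEB inputs alone gave 0.49 ± 0.08 (adjusted p = 0.0184) in basal and 0.62 ± 0.08 (0.000209) after HS. Hsp26 and Hsp27 went by experiment as well: Hsp26 held 191 and 183 CPM in SYS Mettl3 RNAi basal inputs against 13.6 and 36.7 in SYS controls, while NEB inputs of both genotypes held 12.5 to 14.8 CPM. Hsp68 held 157 and 254 CPM by library total in the same SYS Mettl3 RNAi inputs and 20.8 and 40.2 in the SYS controls.

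CG13133 followed the pool rather than the group in SYS inputs, at 0.662 to 2.45 CPM in pool 1 and 16.1 to 24.1 CPM in pool 2 of all 4 groups, so its values in heads rest on which pools are averaged.

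m6A-IP over input gives the recovery of a whole transcript by the antibody relative to other transcripts, not a count of methylated sites. In SYS basal control pools Hsp27 was recovered most among the members, with log2 IP over input (0.5 CPM added to each) of 2.36 and 2.31, followed by Hsp67Ba, CG13133 and CG14207. The edgeR estimates were 2.32 ± 0.06 for Hsp27, 1.31 ± 0.06 for Hsp67Ba, 1.15 ± 0.11 for CG13133, 0.97 ± 0.04 for CG14207 and 0.31 ± 0.08 for Hsp26. CG7409 (-0.73 ± 0.06), Hsp23 (-0.52 ± 0.09), CG4461 (-0.44 ± 0.06), l(2)efl (-0.41 ± 0.08) and Hsp67Bc (-0.36 ± 0.11) were below input. This made 5 of 10 higher, beside 37.4% of all genes, and 5 lower, beside 41.7%, so the counts were near the background and the sizes carry the description. Hsp67Ba and its antisense RNA are uncertain here too.

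After HS the SYS pools had 4 members higher (beside 38.3% of all genes) and 5 lower (beside 38.3%), with Hsp26 at 0.08 and not called, and at -0.26 with library totals. NEB pools had 5 higher (39.9%) and 3 lower (46.5%) in basal, and 5 higher (38.6%) and 4 lower (44.2%) after HS. With NEB in basal, Hsp27 was at 3.03 ± 0.10, Hsp67Ba at 2.51, CG13133 at 1.78 and CG14207 at 1.65, and CG7409 at -2.33, Hsp67Bc at -1.95 and l(2)efl at -1.01. Both antibodies thus placed Hsp27, Hsp67Ba, CG13133 and CG14207 above input and CG7409, Hsp67Bc and l(2)efl below it in both conditions. Hsp26 was above input in NEB pools (0.80 in basal, 0.65 after HS), and with library totals it was at 0.12 in basal and -0.15 after HS.

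**Figure D5:**
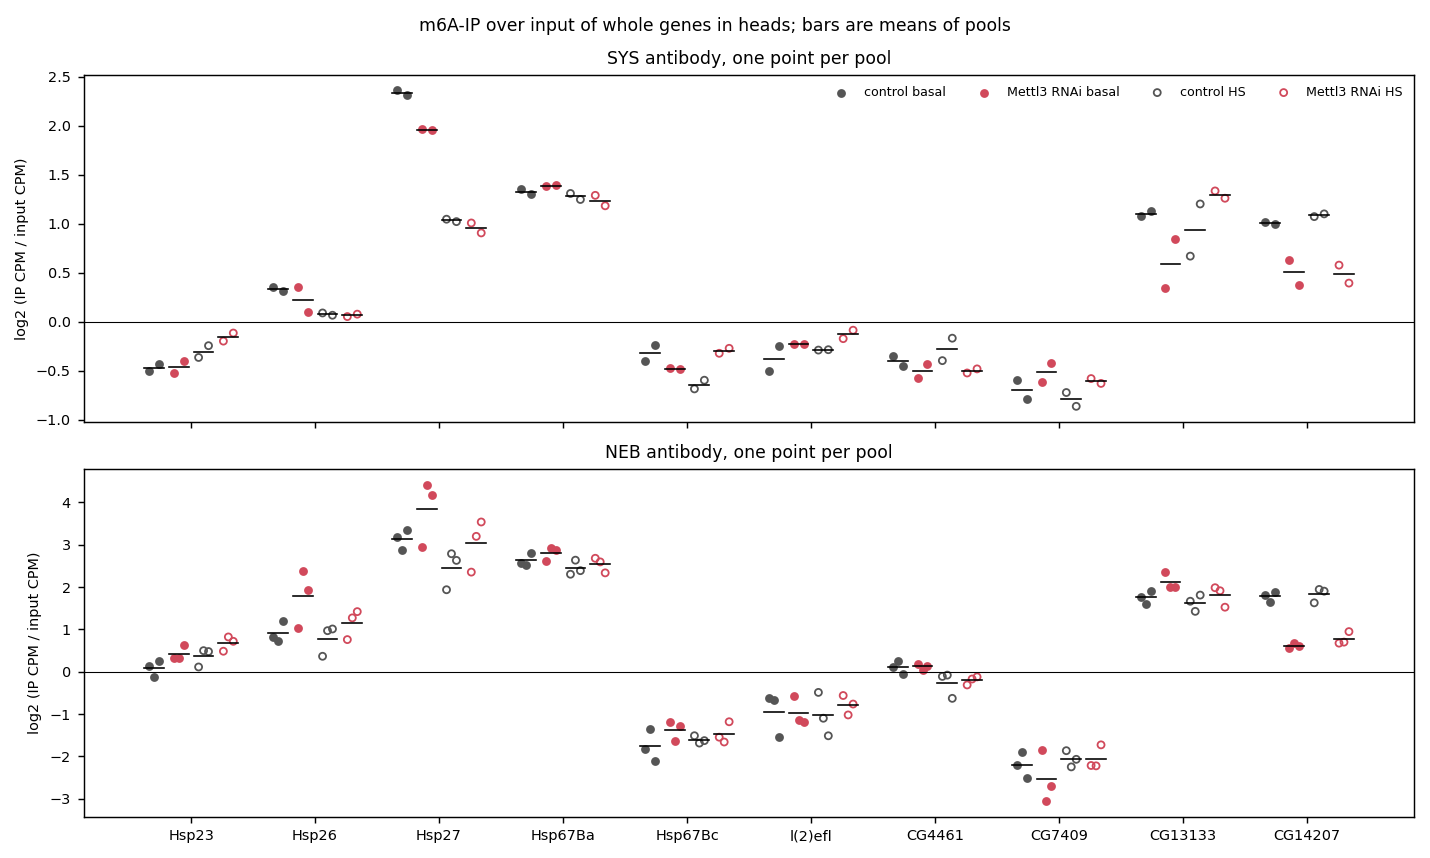
Log2 of IP CPM over input CPM (0.5 added to each) for each gene and pool, with the SYS antibody above and the NEB antibody below. Points are pools, grey for control and red for Mettl3 RNAi, filled for basal and open for HS, and bars are means. In CG14207 the NEB control pools lie at 1.63 to 1.94 and the Mettl3 RNAi pools at 0.57 to 0.95.

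The IP signal of CG14207 was lower in Mettl3 RNAi heads in all 4 tests. With SYS the control pools were at 1.02 and 0.99 in basal and 1.07 and 1.10 after HS, and the Mettl3 RNAi pools at 0.63 and 0.37 and at 0.58 and 0.39. With NEB the control pools were at 1.80, 1.64 and 1.88 and at 1.63, 1.94 and 1.90, and the Mettl3 RNAi pools at 0.57, 0.67 and 0.60 and at 0.68, 0.70 and 0.95. Control and Mettl3 RNAi pools did not overlap for either antibody. The difference of IP over input was -0.51 ± 0.07 (SYS basal, adjusted p = 0.00018), -0.61 ± 0.08 (SYS HS, 0.0001), -1.11 ± 0.13 (NEB basal, 9.1e-06) and -0.98 ± 0.14 (NEB HS, 0.00022), while the Mettl3 RNAi pools stayed above input. The SYS basal IPs of Mettl3 RNAi were taken as IPs from their titles, although another label gives them no antibody, so the SYS basal values of CG14207 and Hsp27 rest on the titles. The input level of CG14207 was not called as different between genotypes in heads.

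Among the 10 members, 2 were lower under Mettl3 RNAi with SYS in basal, beside 9.02% of all genes, and 1 after HS, beside 10.5%, and with NEB 1 in basal, beside 13.4%, and 1 after HS, beside 12.8%. The other member lower with SYS in basal was Hsp27, from 2.36 and 2.31 in control to 1.97 and 1.96 in Mettl3 RNAi pools (-0.40 ± 0.07, adjusted p = 0.0011). With NEB its value was 0.75 ± 0.29 in the other direction (adjusted p = 0.11, not called). Hsp67Bc was called higher after HS with SYS, from -0.69 and -0.60 to -0.32 and -0.27 (0.33 ± 0.09, adjusted p = 0.014), 1 member where 1.72% of all genes were, and 3 of 9 alternatives ended that call, namely leaving out control pool 1 or 2 (adjusted p = 0.316 and 0.108) and having no pool block. Without the pool as a block, which pairs an IP with its own input, edgeR called none of the SYS differences between genotypes (CG14207 had an adjusted p of 0.581 in basal and 0.728 after HS).

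Hsp27 was also the member whose IP over input moved with HS. In control SYS pools it went from 2.36 and 2.31 in basal to 1.05 and 1.02 after HS, without overlap, and in Mettl3 RNAi pools from 1.97 and 1.96 to 1.01 and 0.91. The difference in controls was -1.32 ± 0.08 (adjusted p = 7e-12), 1 member of 10 where 0.336% of 10414 genes were called lower, and without the pool as a block it was not called (-1.32, adjusted p = 1.00). Of the 14 comparison chaperones, 4 were called lower and 1 higher in this SYS test, with values from -0.50 (Hsp70Bbb) to 0.41 (Hsp70Bb). With NEB the control pools of Hsp27 went from 3.17, 2.88 and 3.35 to 1.94, 2.79 and 2.63. There edgeR called 0 of 10 members (Hsp27 -0.72 ± 0.23, adjusted p = 0.62), beside 0.296% of all genes in either direction. An unadjusted p under 0.05 was reached by 2 members, beside 602 of 10134 genes, and DESeq2 called 0. Hsp27 input rose over the same pools from 19.7 and 51.2 to 5039 and 4623 CPM with SYS.

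The genes whose group means over the 12 brain groups were most like those of 4 members were named by Pearson's r of log2 group means (0.5 CPM added) over 8136 genes that reached 5 CPM in a group, members aside, as a description, since groups share libraries of 2 experiments and the heat contrast. For Hsp26 these were Hsp68 (0.977), the noncoding RNA alphagamma-element CR32865 (0.971) and CG14961 (0.969). For Hsp67Bc they were alphagamma-element CR32865 (0.909), Lfg (0.893) and the antisense RNA CR45479 (0.885). For l(2)efl they were CG14327 (0.927), CG34423 (0.918) and shop (0.908), and for CG14207 Sardh (0.964), CG5335 (0.953) and CG11686 (0.952).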

How the data were processed

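The authors deposited raw read counts per gene, 1 column per library, made by trimming reads, mapping with STAR 2.7.3a to dm6, removing unmapped or improperly paired reads and counting over FlyBase exons in union mode. Brain RNA was prepared as stranded mRNA libraries, and polyA+ RNA of head pools with a total RNA kit after m6A-IP. The counts were neither normalized nor pooled, and whether counting used strand is not stated in the sources used here.

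Counts of 17562 genes in 87 libraries were fitted with edgeR 4.0.16 in R 4.3.3 (TMM factors, filterByExpr with a minimum count of 10 and minimum total of 15, glmQLFit and glmQLFTest, Benjamini-Hochberg adjustment within each of 33 comparisons, threshold 0.05). The SE is the log2 fold change over the root of F. CPM use TMM factors, computed apart for all brains, for all head inputs and, in IP over input, for the libraries of each antibody. Head inputs were fitted with the antibody's experiment as a term, and IP comparisons with the RNA pool as a block. Recovery libraries were compared with basal and HS replicates 1–3. DESeq2 1.42.0, RLE factors, library totals, no filter, replicate blocks, subsets of replicates or antibodies, and each library left out were the alternatives. Counts of members called under an alternative are given without its share of all genes unless stated.

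Equal replicate numbers were checked by correlating deviations from group means. Between control basal and HS brains they correlated at 0.281 to 0.682, which is over 0.1 in all 6 pairs, and the block changed no call of a member there. Between NEB inputs all pairs reached 0.152 to 0.331. In SYS inputs, with 2 pools each, the genotypes correlated at 0.674 in basal and 0.727 after HS. Basal and HS correlated there at 0.077 in control and 0.188 in Mettl3 RNAi. The main fits of head inputs had no such block. Other brain groups had pairs under 0.1. The study describes its replicates as biological, from crosses of different parents, and also mentions technical repeats. The labels do not say which libraries came from separate crosses, so p-values measure the spread between these samples, part of which may be technical.

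Named genes are the 10 members, 14 of 15 listed comparison chaperones found in the table, and the 3 genes nearest in pattern to Hsp26, Hsp67Bc, l(2)efl and CG14207. The members and lists were chosen with earlier results of these data known. Promoters were read from the RefSeq Release 6 genome at Ensembl gene starts. A planned comparison of the members' protein sequences was not run. Figures used matplotlib 3.10.9. Statistical scripts were tested on simulated data.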

Additional observations from a re-analysis of the deposited data

Results flagged for a closer look

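CG14207 in basal Mettl3 RNAi brains had 1 library, replicate 5, at 92.0 CPM, apart from the other 5 at 70.1 to 77.1. It was 1 of 40 groups tested for a library that stands apart, and chance sets about 1 in 20 such groups apart.

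Some effects differed between groups by a test of the difference itself. The log2 HS response of control heads minus control brains of the Mettl3 experiment was -2.05 for Hsp26, -1.46 for Hsp27 and 2.31 for Hsp67Bc. Tissue and library kit cannot be told apart there. In control brains of the Ythdc1 experiment the responses of Hsp26 and Hsp27 (7.52 and 7.46) were near those of control heads (7.49 and 7.12).

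The m6A-IP over input of Mettl3 RNAi minus control heads was -0.51 (SYS basal), -0.61 (SYS HS), -1.11 (NEB basal) and -0.98 (NEB HS) for CG14207, -0.40 for Hsp27 (SYS basal) and 0.33 for Hsp67Bc (SYS HS). The IP over input of Hsp27 with SYS in control heads differed between HS and basal by -1.32. The causes were not tested.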

How the results depend on the processing

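With library totals as the only scaling, the direction turned for CG14207 with HS (-0.25 in control, -0.089 in Mettl3 RNAi and -0.12 in Ythdc RNAi brains), for Hsp26 in the IP over input after HS (-0.26 with SYS, -0.15 with NEB) and for Hsp23 with NEB after HS (-0.57). It also changed counts of members called: 1 lower in place of 0 with HS in control brains and in the controls of the Ythdc1 experiment, 3 higher in place of 1 from HS to 6 h in control and 2 in place of 1 in Mettl3 RNAi brains, with 4 lower in place of 7, 2 higher in place of 1 between genotypes after HS, 3 higher in place of 1 for heads minus brains, 5 lower in place of 3 in NEB basal IP, 2 higher in place of 1 for the genotype difference of SYS IP after HS and 3 in place of 0 for NEB. The median of all genes moved with this scaling by -0.40 in control brains with HS.

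DESeq2 called 1 higher and 1 lower in place of 0 at 24 h in controls, 3 lower in place of 0 at 24 h in Mettl3 RNAi brains, and between genotypes 2 higher in place of 0 in basal, 2 in place of 1 after HS, 1 in place of 0 at 6 h, 1 in place of 2 at 24 h and 1 lower in place of 0 for the response. For Ythdc RNAi it called 2 higher and 1 lower in basal in place of 0, 2 higher in place of 1 after HS, and 1 higher and 2 lower in place of 0 for the response. In head inputs after HS it called 1 higher in place of 0. NEB inputs alone gave 1 higher in basal and 2 after HS in place of 0. RLE factors gave 1 higher in place of 0 for the genotype difference of NEB basal IP, where no filter gave 2. No filter also gave 1 higher in place of 0 after HS, 1 lower in place of 0 for the HS change of NEB IP and 1 in place of 2 at 24 h.

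The replicate block gave 0 in place of 2 higher at 6 h against basal in Mettl3 RNAi brains and 0 in place of 2 between genotypes at 24 h. Between genotypes after HS it gave l(2)efl at 0.86 (adjusted p = 0.00996) and 1 lower in place of 0, Hsp26, as did the replicate range as a term. Replicates 1–3 or 4–6 alone gave 0 higher in place of 1 there. In head inputs the block gave 2 lower in basal and 2 higher and 1 lower after HS, in place of 0. Without the pool block, SYS IP had 3 higher and 2 lower in place of 5 and 5 in basal and 1 lower in place of 5 after HS, and the genotype differences had 0 in place of 2 lower in basal and 0 in place of 1 in each direction after HS. The HS change had 0 in place of 1. The fits with or without a block changed no other count of members called by over 1.5 times.

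Without 1 library, counts ranged as follows. Higher with HS in the controls of the Ythdc1 experiment were 5 to 8 (8 without basal replicate 8, beside 1884 of 10644 genes). Higher at 6 h against basal in Mettl3 RNAi brains were 0 to 3, and lower at 24 h were 0 to 6 (6 without basal replicate 2, beside 1796 of 10142 genes). Between Mettl3 RNAi and control, 0 to 1 were higher after HS, at 24 h and in head inputs in each condition. Between Ythdc RNAi and control, 0 to 1 were higher in basal and after HS, and 0 to 1 lower in the response. For the genotype difference of IP, 0 to 2 were higher and 1 to 2 lower with SYS after HS, 0 to 2 higher with NEB in basal and 0 to 1 with NEB after HS. An arm left with 1 library is assumed to vary like the others. Depth limits CG13133 and CG4461 in brains, with 4 to 60 and 7 to 324 reads per library. Permutation tests for members under the count filter were not needed, and the protein comparison was not run.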
